A study of Drosophila melanogaster with 2 samples.

Results

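The epidermis and cuticle genes described here are 10 Drosophila melanogaster genes that build the outer layer of the embryo and its cuticle: crb, shg, ovo, grh, kkv, knk, serp, verm, ple and Ddc. They were taken from a list of gene names, with no measured value in the rule, and are 10 of 13945 protein-coding genes on the 6 main chromosome arms. Regions were given to them by position. A promoter region has its summit within 1 kb of any transcription start site (TSS) of the gene, and a distal region lies farther than that from every TSS and has the gene's TSS as its nearest protein-coding one. By this rule 156 of 139318 candidate regions, and 6 of 2877 passing peaks, fell to the 10 genes.

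The series maps by ChIP-seq where gooseberry (gsb) is found on chromatin. It has 1 group of 2 biological replicates, each of whole embryos 0 to 18 h old from a transgenic line, strain gsb-GFP, in which gsb is fused to eGFP, and chromatin was pulled down through an anti-GFP antibody (a further label field gives the antibody as gsb). The line is described as an insertion that targets gsb, and the labels do not say what drives the fusion. Each replicate has 1 technical replicate. The labels name a possible control experiment that was not analysed here, and whether the deposited peaks and their signal are already relative to it is not stated. All values below are therefore set against other genes and regions of the same lists. A candidate region is said to have passed where the authors' thresholded list holds it. All regions in the combined one had a global IDR (irreproducible discovery rate), which grows as the ranking of regions fails to repeat in other reads, of at most 0.01. Signal is the authors' own value for each region, on a scale the sources do not define. The files hold peaks and not reads, so the depth behind each value is unknown. Whole embryos mix all tissues, so binding in few cells and weaker binding in many cells cannot be told apart, and the lists hold no expression values by which epidermal cells could be checked.

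The embryonic epidermis is a polarized epithelium. Its cells set up an apical membrane through Crumbs, encoded by crb, and hold to each other through E-cadherin, encoded by shg. The transcription factors Grainy head (grh) and Shavenbaby, a product of the ovo locus, then direct the genes that make the barrier and the denticles. Chitin is made by the synthase kkv, ordered with the help of knk and modified by the deacetylases serp and verm, while the tyrosine hydroxylase ple and the dopa decarboxylase Ddc supply the catecholamines that tan the cuticle. Gooseberry itself is a Pax protein, able to bind DNA through a homeodomain and a paired domain, and takes part in patterning the segments of the same epidermis.

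Passing peaks were given to crb, shg, ovo and grh, genes of polarity, adhesion and transcription, and to none of the 6 genes of chitin and tanning. The classes were not tested against each other, and the first 4 genes had 11 to 29 distal candidate regions each where the other 6 had 3 to 15. In the authors' combined list, 1 of the 10 genes had a promoter peak, crb, against 13.8% of all protein-coding genes. A distal peak was present at 3 of the 10, grh, ovo and shg, against 5.74% of all genes. The 10 genes also had more distal candidate regions to pass, with a median of 9.5 each against 3 for all protein-coding genes. Counted by region, 2 of 38 promoter candidates of the 10 genes passed (5.26%), against 4.44% of all promoter candidates, and 4 of 118 distal candidates passed (3.39%), against 1.16% of all distal ones. The same 4 genes had peaks in the conservative list, where 13.2% of all genes had a promoter peak and 5.39% a distal one.

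The replicates' own lists held fewer of these peaks. In the replicate 1 list crb was the 1 gene with a promoter peak (9.89% of all genes) and none of the 10 had a distal peak (3.56% of all genes). In the replicate 2 list crb and grh had promoter peaks (9.46% of all genes), and grh and ovo had distal peaks (3.26% of all genes). Of the 6 combined peaks, 1, in an intron of crb, had its summit in a passing peak of each replicate. The replicates' lists are shorter throughout, with 1864 and 1701 peaks against 2877 in the combined list. The same share over all combined peaks is not given here, so this count does not set the 10 genes apart. The distal counts therefore rest on the combined lists and, for grh and ovo, on replicate 2.

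**Figure D1:**
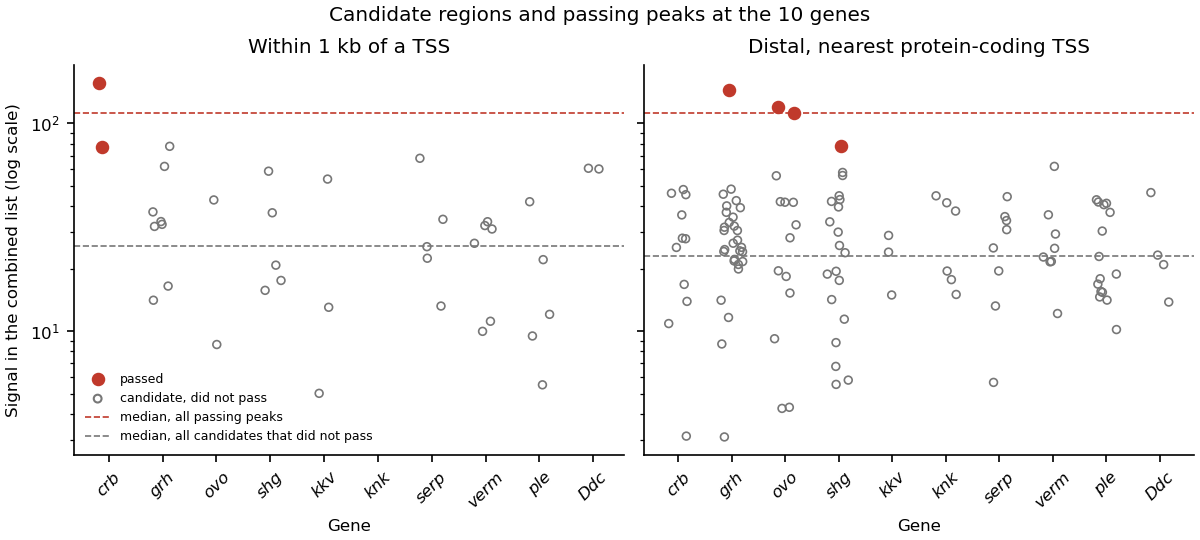
Signal, the peak caller's own value, in the combined list on a log scale for every candidate region of the 10 genes, in a panel for promoter and a panel for distal regions. Red points passed and open points did not, and dashed lines give the medians of all passing peaks (112) and of all candidates that did not pass (25.6 for promoter and 22.9 for distal regions). The 6 passing peaks lie between 77.3 and 157.

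E-cadherin, encoded by shg on the minus strand of 2R (21049654 to 21057197), had a peak beyond the end of the gene. The peak spans 21049180 to 21049543 in intergenic sequence, 7835 bp from the shg TSS and downstream of the gene. Its signal was 77.5 in the combined list, and the region had 42.6 in replicate 1 and 35.0 in replicate 2. The peak passed in neither replicate's own list, with a global IDR of 0.0412 in replicate 1 and 0.26 in replicate 2. It ranked 2482 of 2877 by signal, so it is among the weaker peaks. The other distal candidates of shg, 19 in number, had signals up to 58.1. At the shg promoter the strongest of 5 candidates lay 99 bp upstream of the TSS and did not pass, at 58.9 in the combined list, 17.05 in replicate 1 and 34.5 in replicate 2. A further peak, of signal 86.2, lay 1631 bp from the shg TSS but nearer to that of its neighbour cpa, at 1041 bp.

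Crumbs, the apical determinant, had the strongest peak of the 10 genes. The gene lies on the plus strand of 3R (24295078 to 24314541). Its stronger peak (24295863 to 24296226) had its summit in an intron, 967 bp downstream of the TSS, with a signal of 157 in the combined list, 80.99 in replicate 1 and 72.6 in replicate 2. It passed in all of these lists, and 69.03% of combined peaks had a signal no higher. The second crb peak (24294835 to 24295198) was centred 61 bp upstream of the TSS, with a signal of 77.3 in the combined list, 31.5 in replicate 1 and 43.0 in replicate 2. This one was less well repeated: its IDR was 0.00643 in the combined ranking but 0.36 in replicate 1 and 0.462 in replicate 2, and the conservative list did not hold it. The same peak is 618 bp from the TSS of the neighbouring gene CG5715. No other candidate lay within 1 kb of the crb TSS, and the 11 distal candidates of the gene, which had signals from 3.13 to 48.0, did not pass.

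The sequences under the crb summits are shown because they are the promoter peaks of the set. Both are read 5′ to 3′ on the plus strand of Release 6, the strand of the gene, from the RefSeq genome. The first spans 100 bp on each side of the intron summit (chr3R:24295945-24296145), and the second runs from 100 bp before the upstream summit to the base before the TSS (chr3R:24294917-24295077). Capitals mark GAGAG and ACAGTG or their reverse complements.
crb intron peak: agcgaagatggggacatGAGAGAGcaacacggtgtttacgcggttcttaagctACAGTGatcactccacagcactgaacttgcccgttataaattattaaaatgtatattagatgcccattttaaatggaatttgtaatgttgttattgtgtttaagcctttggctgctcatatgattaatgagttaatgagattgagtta
crb upstream peak: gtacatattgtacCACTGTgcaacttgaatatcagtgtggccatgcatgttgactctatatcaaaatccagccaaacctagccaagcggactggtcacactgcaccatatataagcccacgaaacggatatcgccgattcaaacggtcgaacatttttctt
The intron window held overlapping GAGAG repeats starting 83 and 81 bp before the summit and ACAGTG starting 47 bp before it. The upstream window held the reverse complement of ACAGTG starting 87 bp before its summit. ACAGTG on either strand lay within 100 bp of 19.9% of all combined summits and of 8.24% of candidate summits that did not pass.

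The ovo locus, whose product Shavenbaby directs denticle formation, had a pair of peaks upstream of the gene. It lies on the plus strand of X (5048273 to 5070929). The farther peak (5041492 to 5041855) was 6599 bp upstream of the first TSS in intergenic sequence, with a signal of 119 in the combined list, 53.95 in replicate 1 and 63.3 in replicate 2. It passed in replicate 2, with a global IDR of 0.00232, and had 0.0146 in replicate 1, where it did not pass. The nearer peak (5046577 to 5046940), 1514 bp upstream, had a signal of 112.5 in the combined list, 48.98 in replicate 1 and 59.96 in replicate 2. Its IDR was 0.0247 in replicate 1 and 0.0116 in replicate 2, so it passed in the joint lists alone. Both stood near the middle of the combined list (ranks 1326 and 1435 of 2877) and above the next distal candidate of the gene, which had a signal of 55.95 in an intron. The closest TSS of another gene, that of the non-coding RNA lncRNA:CR44833, was 17109 bp from the nearer peak and 22194 bp from the farther one. By contrast no candidate lay within 1 kb of the first ovo TSS: the strongest promoter candidate, 353 bp downstream of a later TSS in the 5' UTR, reached 42.8 in the combined list, 23.1 in replicate 1 and 17.4 in replicate 2.

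The ovo windows are shown because they are the distal peaks farthest from the TSS of any other gene. They are read 5′ to 3′ on the plus strand of X and span 100 bp on each side of the summit, chrX:5041574-5041774 for the farther and chrX:5046659-5046859 for the nearer peak. Capitals mark the same letters as at crb.
ovo farther peak: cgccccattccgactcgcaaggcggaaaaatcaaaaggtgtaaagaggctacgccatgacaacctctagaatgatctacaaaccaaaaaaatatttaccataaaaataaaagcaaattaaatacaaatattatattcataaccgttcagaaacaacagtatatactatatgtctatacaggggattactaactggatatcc
ovo nearer peak: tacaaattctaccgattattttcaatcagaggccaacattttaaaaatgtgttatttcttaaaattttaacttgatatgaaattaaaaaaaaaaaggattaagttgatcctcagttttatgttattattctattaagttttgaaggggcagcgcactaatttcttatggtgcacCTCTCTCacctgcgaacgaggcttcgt
The nearer window held overlapping reverse complements of GAGAG starting 74 and 76 bp after the summit, and the farther window held none of the 7 motifs searched. GAGAG was common, lying within 100 bp of 25.5% of all combined summits and of 23.6% of candidate summits that did not pass. The GC content of the windows was 34.3% and 31.3%, below the median of 37.8% over all combined peaks.

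Grainy head, the transcription factor of epidermal barrier genes, had a peak inside its own gene. The gene lies on the plus strand of 2R (17801132 to 17842820) and has 5 annotated TSSs. The peak (17804760 to 17805123) was in an intron, 2075 bp downstream of the nearest grh TSS, with a signal of 145 in the combined list, 78.95 in replicate 1 and 65.2 in replicate 2. It passed in replicate 2 (global IDR 0.00323) and not in replicate 1 (0.0393), although the signal was higher in replicate 1. The next of the 29 distal candidates of grh had 48.3. At the first grh TSS a region 67 bp upstream (17800883 to 17801246) had a signal of 77.5 in the combined list, 31.3 in replicate 1 and 50.01 in replicate 2. It passed in replicate 2 and missed the combined threshold of 0.01 with an IDR of 0.0134.

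**Figure D2:**
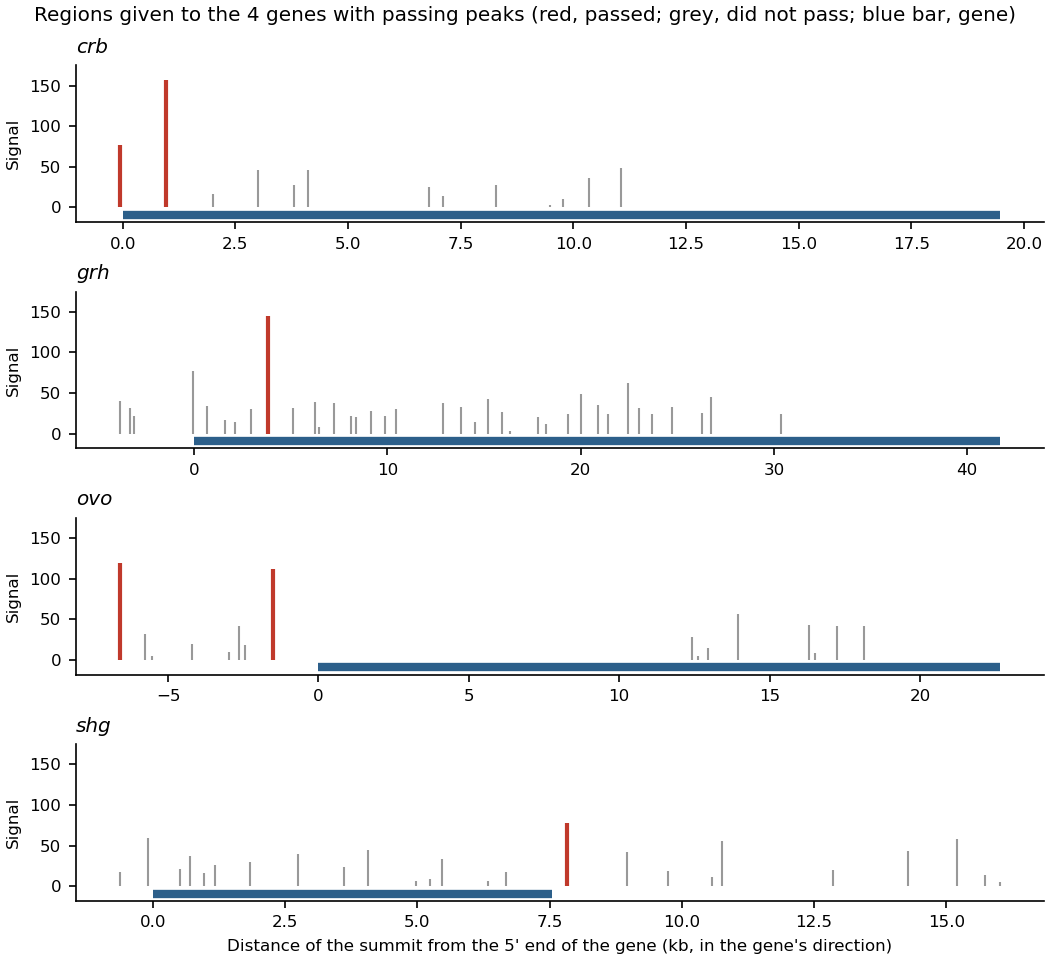
Signal in the combined list of every region given to crb, grh, ovo and shg, placed by the distance of its summit from the 5' end of the gene in kb along the gene's direction, with the gene as a blue bar. Red lines passed and grey lines did not. The peaks lie at the start of crb, within the first part of grh, upstream of ovo and beyond the end of shg.

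Signal alone did not decide which regions passed. The regions just inside the threshold were those of shg (signal 77.5, IDR 0.00729) and the crb upstream peak (77.3, IDR 0.00643). Just outside were the grh promoter region (77.5, IDR 0.0134) and the serp promoter region (67.9, IDR 0.0181). The grh promoter region, at 77.54, thus had a slightly higher signal than the pair inside the threshold, at 77.47 and 77.3. The serp region had a lower one.

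The replicates gave values of like size at the 6 passing peaks, but an IDR threshold itself favours regions that repeat. Of the 156 candidate regions, 91 had their summit in a candidate region of each replicate, and 48 of these were higher in replicate 2. No such region was found for 41 of the 156 in replicate 1 and for 35 in replicate 2. The same shares over all candidate regions are not given here, so these counts do not set the 156 apart from other candidates. Over the 91 regions, most of which did not pass, the ratio of replicate 2 to replicate 1 had a median of 1.02. Its lowest and highest values were 0.227 and 4.91. Over all 2699 combined peaks found in both replicates, which all passed, the median ratio was 0.932. The 5th and 95th percentiles there were 0.518 and 1.64, which are not a full range as given for the 91. At the 6 passing peaks replicate 2 was higher for both ovo peaks and the crb upstream peak, and replicate 1 for the crb intron, grh and shg peaks. Some candidate regions overlap, and then share a replicate's region, so these regions are not independent.

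**Figure D3:**
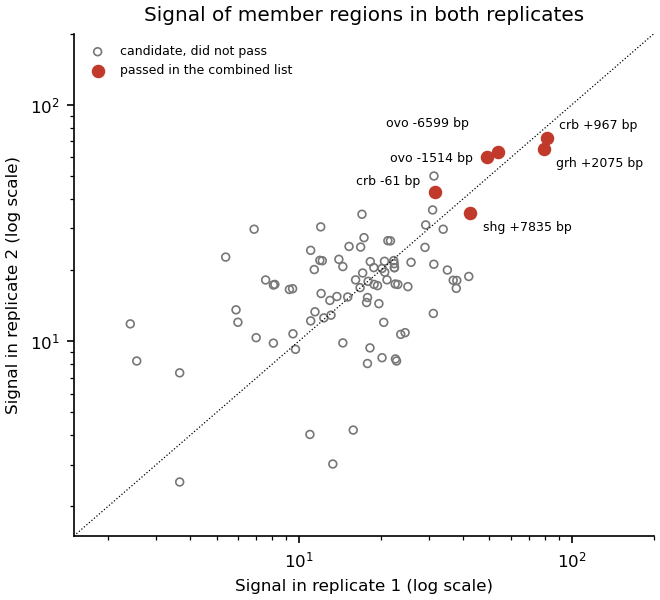
Signal in replicate 1 against signal in replicate 2, both on log scales, for the 91 candidate regions of the 10 genes found in both replicates, with the line of equal signal dotted. Red points passed in the combined list and carry the gene and the distance from its TSS, where plus is downstream. The red points lie at the upper end and near the line, while weaker candidates scatter more widely. The IDR threshold that the red points passed itself favours regions that repeat.

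No peak was given to the 4 chitin genes, a count too small to set apart from the 13.8% of all genes with a promoter peak and the 5.74% with a distal one. The deacetylase gene serp (minus strand of 3L, 19700977 to 19708015) came nearest, with a candidate 106 bp upstream of its TSS that had a signal of 67.9 in the combined list, 33.8 in replicate 1 and 29.8 in replicate 2. Its neighbour verm (3L, 19690033 to 19695260, also minus strand) had no promoter candidate above 33.6 (20.7 in replicate 1 and 19.6 in replicate 2). A region between the genes, 4638 bp upstream of verm, reached 62.1, with 37.95 in replicate 1 and 18.1 in replicate 2, and did not pass. Both deacetylase genes lay in a stretch without peaks: the nearest passing summit was 82.9 kb from the verm TSS, at the Lon promoter, and 86.4 kb from the nearest serp TSS, near SREBP. Of all protein-coding genes, 15.6% had no passing summit within 50 kb of a TSS and 7.67% were farther from one than verm.

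The chitin synthase gene kkv (minus strand of 3R, 5378093 to 5392866) had 3 promoter candidates, the strongest in an intron 447 bp downstream of the TSS. Its signal was 53.9 in the combined list, 31.3 in replicate 1 and 21.2 in replicate 2, with an IDR of 0.426. Its 3 distal candidates reached 28.9. The chitin organizer gene knk (minus strand of 3R, 10122365 to 10125664) had no candidate within 1 kb of its TSS, like 10.2% of protein-coding genes, so no promoter peak could pass there. The highest of its 6 distal candidates had a signal of 44.8 in a coding exon, with 34.9 in replicate 2 and no candidate region in replicate 1. The nearest passing summits were 21.1 kb from the kkv TSS, at the Polr2F promoter, and 4688 bp from the knk TSS, closer to tws.

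The tanning enzyme genes, ple and Ddc, also had no peak of their own. That count, too, is too small to set apart from the shares of all genes, 13.8% with a promoter peak and 5.74% with a distal one. At Ddc (minus strand of 2L, 19116483 to 19120306) the 2 promoter candidates had almost equal signals. The one 806 bp upstream had 60.8 in the combined list, 41.99 in replicate 1 and 18.8 in replicate 2, while the one 52 bp downstream of the TSS, in the 5' UTR, had 60.3, 29.2 and 31.1 in the same lists. Their IDRs were 0.0784 and 0.0624. Replicate 1 was well above replicate 2 at the upstream candidate, and the replicates were close to each other at the TSS. The nearest passing summit was 2869 bp from the Ddc TSS and 478 bp from that of Phb1. At ple (minus strand of 3L, 6713356 to 6719525) the strongest of 5 promoter candidates, 35 bp downstream of the TSS, had 42.0 in the combined list, 18.8 in replicate 1 and 20.5 in replicate 2, and 15 distal candidates reached 42.9. The nearest passing summit to ple was 10.4 kb away.

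Measured by the strongest candidate within 1 kb of a TSS, whether it passed or not, the genes spread over most of the range of all genes. Among 12529 protein-coding genes with such a region, crb was at the 93.5 percentile, grh at 83.9, serp at 78.9, Ddc at 72.6, shg at 70.5, kkv at 63.4, ovo at 42.9, ple at 41.1 and verm at 22.7. The median of the 9 genes was the 70.5 percentile. For the strongest distal region, ranked among 10000 genes that have one, grh was at 97.3, ovo at 96.4, shg at 91.5, verm at 80.3 and the other 6 at 53.1 or below. The lowest was kkv at 15.1. A strongest region tends to be higher where more candidates are present. By number of distal candidates grh was at the 92.6 percentile, shg at 86.7, ovo at 79.5 and kkv at 39.0. However, ple at 81.1 and crb at 74.0 also had many, without a high strongest distal region. The part played by these numbers was not tested. The order differs between the region classes for crb, at 93.5 for promoters and 53.1 for distal regions, and for ovo, at 42.9 and 96.4. The gene grh, with 5 TSSs and 8 promoter candidates, was high in both.

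**Figure D4:**
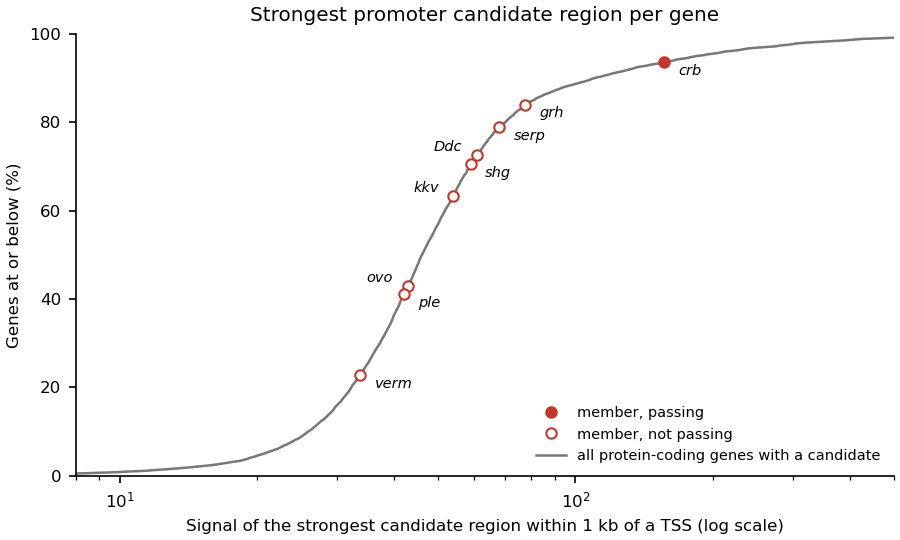
Percent of protein-coding genes whose strongest candidate region within 1 kb of a TSS has a signal at or below the value on the log x axis (grey line), with the members that have such a region marked. The filled point, crb, passed at 157, and the other 8 lie between 33.6 and 77.5 without passing.

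Of the 7 motifs searched on either strand within 100 bp of the summits, the 6 peaks held 3. GAGAG, of the GAGA type, was in 3 of 6 (crb intron, grh and the nearer ovo peak), against 25.5% of all combined peaks and 23.6% of candidates that did not pass. ACAGTG was in 2 of 6, both at crb, against 19.9% and 8.24%. The homeodomain core TAATTA was in 1 of 6, the grh peak, against 13.5% of all combined peaks and 8.62% of candidates that did not pass. None of the 6 held the paired domain core GTCACGC (0.869% of all combined peaks and 1.25% of candidates that did not pass), the Zelda site CAGGTAG (1.18% and 1.36%), the DREF element TATCGATA (2.57% and 0.391%) or the grainy head site AACCGGTT (0.243% and 0.207%). Matches of GAGAG can overlap each other, and the presence of these letters is a description of the windows alone. GC content ranged from 30.3% at grh and 31.3% at the nearer ovo peak to 44.8% at shg and 45.8% at the crb upstream peak. The median was 37.8% over all combined peaks and 47.8% over candidates that did not pass. Among combined peaks the shg and crb upstream peaks were at the 73.3 and 75.2 percentiles of GC content.

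Other genes of the same processes were read from 5 lists with 63 names, of which 61 were matched. Promoter peaks were present at 7 of the 61 (11.5%, against 13.8% of all protein-coding genes) and distal peaks at 12 (19.7%, against 5.74%). These genes had a median of 9 distal candidates each, against 3 for all protein-coding genes. Of 18 polarity and junction genes 3 had a promoter and 6 a distal peak. Here baz, the partner of the Par complex, had the strongest peak (564 in the combined list, 300.3 in replicate 1 and 281 in replicate 2), distal and in a 5' UTR. It was followed by a distal peak of scrib (193) and by the promoter peaks of par-6 (153, inside the 5' UTR of its neighbour CG8188) and dlg1 (143). The products of scrib and dlg1 are scaffolds of the basolateral side and the septate junctions.

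The counts of the remaining lists stand beside 13.8% of all protein-coding genes with a promoter peak and 5.74% with a distal one. No list was tested against these shares. Among 7 epidermal transcription factor genes 1 had a promoter and 3 a distal peak. The POU factor gene vvl had 239 and 164 at its distal peaks, which lay 26251 and 33779 bp from its nearest TSS. The GATA cofactor gene ush had 4 distal peaks, up to 139.6, and a promoter peak of 116, and rib had 98.4. Of 13 chitin genes 2 had a promoter peak, the chitinase gene Cht7 (168) and reb (93.7), and reb also had a distal peak (151). Of 10 tanning and pigment genes, Pu, whose product makes the cofactor precursor of tyrosine hydroxylase, had a promoter peak (84.6). The gene y, of black pigment, had a distal one (104), in a coding exon at a place inside the bodies of both CG32816 and y. Among 13 apical matrix and denticle genes none had a promoter peak, and the distal peak was at sn (162), which encodes the actin bundler fascin. Most genes with a distal peak were thus in the lists of polarity and transcription factor genes, as among the members. For promoter peaks the chitin list, at 15.4%, stood between the polarity list, at 16.7%, and the transcription factor list, at 14.3%. The shares of the tanning and apical matrix lists were lower. Members and lists were chosen with earlier results of these data known, so their likeness is not independent support. These lists of 7 to 18 genes were not tested against each other, and their numbers of distal candidates were not compared. Some of the distal peaks passed in neither replicate's own list.

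**Figure D5:**
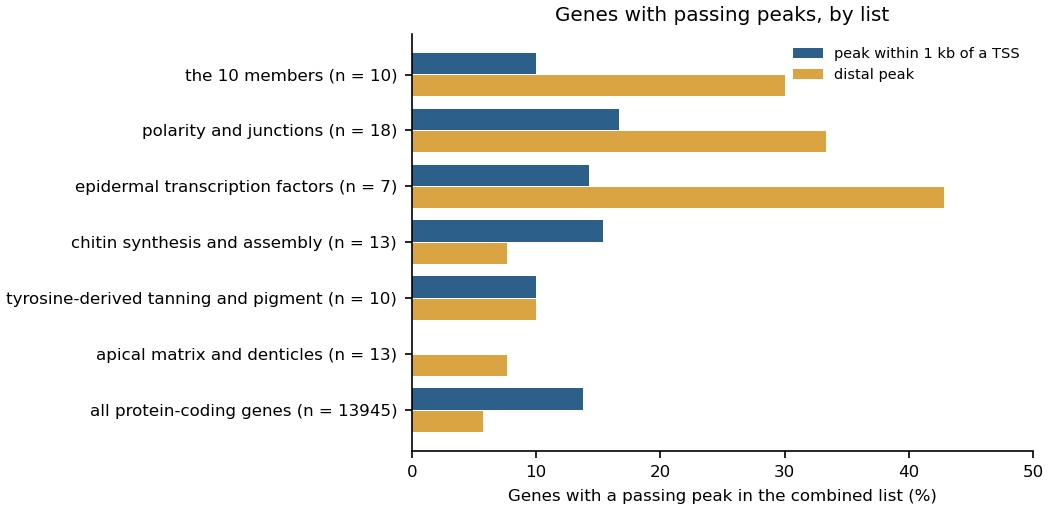
Percent of genes with a passing peak in the combined list within 1 kb of a TSS (blue) or distal (yellow), for the 10 members, the 5 pathway lists and all protein-coding genes, with the number of genes in brackets. Distal peaks are at 3 of the 10 members, 33.3% of polarity and junction genes and 42.9% of epidermal transcription factor genes, against 5.74% of all protein-coding genes.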

How the data were processed

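The authors deposited peak lists of ChIP-seq on assembly dm6, per the labels: ranked candidate regions and the regions past an IDR threshold, for each replicate and for both together, with a conservative joint list. Per the file headers, the lists derive from the alignments and a further file that they do not describe. The aligner, the peak caller and the scale of the deposited signal: not given in the sources used here. The deposited ranked lists carry a -log10 of the global IDR, and every region of the combined list was at 0.01 or below.

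Signal was ranked within a list. The replicates' values were also set beside each other and as ratios, although the depth behind them is unknown. A replicate's value is its strongest candidate region holding the combined summit. Genes and TSSs came from Ensembl release 115, without annotated transposable elements, and sequence from the RefSeq Release 6 genome, in which 99.5% of annotated coding sequences began with ATG. Python 3.11.15, pandas 2.3.3 and pysam 0.24.0 were used, and the assignment to genes was checked on summits placed at known distances. Members, lists, motifs and alternatives were chosen with earlier results of these data known, so counts are descriptions beside all genes, with no test. Named genes are the 10 members, up to 4 genes with peaks per pathway list by signal, and other genes with the TSS nearest to a member's peak. Genes near the closest passing peak (cpa, Phb1, tws, Lon, SREBP, Polr2F) were named after their values were seen. No column of per-sample values was left unmapped.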

Additional observations from a re-analysis of the deposited data

How the results depend on the processing

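The count of 1 gene with a promoter peak held in the conservative list, at a global IDR of at most 0.001, among peaks at or above the median signal, within 500 bp, by any base of the peak and with TSSs of protein-coding transcripts. Within 500 bp it rests on the weaker crb upstream peak, since the intron peak becomes distal. It ranged from 1 to 2 when either replicate's list was used alone and was 3 within 2 kb, where ovo and the neighbour peak of shg entered. Genes with a distal peak ranged from 0 to 2 and distal peaks from 0 to 2 in the replicates' own lists. Against 3 genes and 4 peaks, there were 2 genes and 3 peaks among the stronger peaks and 4 genes, crb among them, and 5 peaks with 500 bp. Both counts were 0 at a global IDR of at most 0.001, and the crb intron peak alone passed that limit. The count of 1 peak found in both replicates was the same by any shared base and at 50% cover. Of all protein-coding genes, promoter peaks were at 13.2% in the conservative list, 9.46% to 9.89% in the replicates' lists, 7.21% at the stricter IDR, 8.63% among the stronger peaks, 11.05% within 500 bp, 18.1% within 2 kb and 14.6% by any base. Distal peaks were at 3.26% to 3.56%, 2.19% at the stricter IDR, 2.74% among the stronger peaks, 7.62% with 500 bp and 3.91% with 2 kb. The median percentile of the strongest promoter region was 62.8 to 68.6 in the replicates' lists and 75.7 within 500 bp. No paired analysis was possible because there is 1 group. Peak lists do not give read depth, so a region without a peak may lie below what these libraries could show.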
